A study of Mus musculus with 12 samples.

Results

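The subject here is a set of 10 mouse liver genes for transporters of bile acids and other organic anions, followed in livers with reduced Grb14. Slc10a1, Slco1a1, Slco1a4, Slco1b2 and Slco2b1 take up solutes from blood. Abcb11, Abcb4 and Abcc2 export into bile, and Abcc3 and Abcc4 export back into blood. The genes were chosen by name, each through the 1 probe set that the platform's annotation pairs with that symbol alone, and all 10 of 10 were measured, among 19938 genes in the whole data set. C57Bl/6J mice, 10 weeks old, received by vein an adenovirus that carried either a scrambled control hairpin (sh scramble, 6 mice) or a hairpin against Grb14 (sh Grb14, 6 mice), and their livers were profiled 7 days later in the fed state, 1 array per mouse. All mice therefore carried an adenovirus and a hairpin. Livers without virus were not analysed here, and the labels give no sex, no second hairpin and no batch. Because each sample is whole liver, fewer cells of a type and less RNA per cell cannot be told apart.

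Hepatocytes draw bile acids from portal blood through the sodium-dependent carrier NTCP, the product of Slc10a1, and through the sodium-independent OATP carriers of the Slco family. They secrete bile acids at the canalicular membrane through BSEP, encoded by Abcb11, beside the phospholipid translocator of Abcb4 and the conjugate pump MRP2 of Abcc2. MRP3 and MRP4, the products of Abcc3 and Abcc4, sit on the blood-facing membrane and offer a second way out, which is known to be used when secretion into bile is impaired. The nuclear receptors FXR, PXR and CAR and the stress factor NRF2 are known regulators of these genes.

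Levels are log2 RMA values, whose array medians lay between 7.06 and 7.17 and lower quartiles between 5.69 and 5.83. Arrays of one group correlated with r of 0.990 to 0.997 across probe sets, which are not independent replicates, and arrays of different groups with 0.959 to 0.972. Within sh Grb14, mice 4 and 5 stood apart: they correlated with each other at 0.9965 but with mice 1, 2, 3 and 6 at 0.9919 to 0.9943, while those 4 correlated among themselves at 0.9952 to 0.9967. Mice 4 and 5 also had the highest array medians of all mice, 7.1675 and 7.1688, and the lowest means of hepatocyte secreted protein genes, 13.02 and 13.07. Grb14 fell from 10.15 ± 0.063 to 8.24 ± 0.13 (SD, n = 6 each), which left 26.7% (limma adjusted p = 7.99e-14), with ranges of 10.08 to 10.25 and 8.02 to 8.44. A change is the log2 difference sh Grb14 minus sh scramble with its standard error (SE), and a gene passed when limma's Benjamini-Hochberg adjusted p over all genes was under 0.05. So many genes passed (65.3%) that passing alone says little about a gene: 25.8% passed higher, 39.5% passed lower, and the median change was −0.10. The split between higher and lower also depends on scaling. Among passing genes 39.5% were higher, but 23% with arrays centred on the median of the genes tested and 82.1% with arrays centred on hepatocyte secreted protein genes, so the smaller changes of the transporter genes are given with their values under other scalings.

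The hepatocyte identity of the samples was clear, and markers of other cell types differed between the groups. The 14 measured genes for hepatocyte secreted proteins had mean levels of 13.36 to 13.44 in sh scramble livers and 13.02 to 13.18 in sh Grb14 livers. In that list 11 genes fell and 1 rose. All 12 measured markers of monocytes and recruited macrophages rose, with mean levels of 7.03 to 7.21 against 9.26 to 9.63. Of 9 T cell markers 8 rose and 1, Cd4, fell by 0.66 (SE 0.053). The mean levels of the T cell list were 7.17 to 7.28 against 8.52 to 8.85. Cholangiocyte markers had means of 7.61 to 7.69 and 7.91 to 8.07, with 5 of 13 higher and 1 lower. With arrays centred on hepatocyte secreted protein genes 11 were higher and 0 lower. On the deposited values Prom1, Muc1 and Epcam rose most, by 2.15 (SE 0.12), 0.89 (SE 0.15) and 0.48 (SE 0.082). On the same values the duct keratins Krt19 and Krt7 had changes of −0.076 (SE 0.14) and −0.021 (SE 0.065) that did not pass. Kupffer cell markers had means of 9.18 to 9.49 and 9.72 to 9.86, with 5 of 11 higher and 1 lower (8 and 1 with that centring). Periportal hepatocyte genes had means of 12.24 to 12.36 and 11.39 to 11.92, with 7 of 9 lower and 2 higher, and pericentral genes 11.28 to 11.42 and 10.02 to 10.40, with 10 of 13 lower and 1 higher. The part of these shifts in the transporter changes was not tested.

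Across the 10 transporter genes, the bile salt export pump and all uptake carriers but Slco1a4 were lower in sh Grb14 livers. Of the exporters to blood, 1 was much higher. Slc10a1, Slco1a1, Slco1b2, Slco2b1 and Abcb11 fell, Abcc3 and Abcc4 rose, and Slco1a4, Abcb4 and Abcc2 did not pass. That is 7 of 10 past the test, near the 65.3% of all genes. In 6 of 10 genes the groups did not overlap, against 41.2% of all genes, and 5 of these were lower, against 20.8%, and 1 higher, against 20.3%. Of the falls 3 and of the rises 1 were at least 2-fold, sizes reached among all genes by 2.65% downward and 6.37% upward. The median change of the 10 genes was −0.42, beside −0.10 for all genes.

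**Figure D1:**
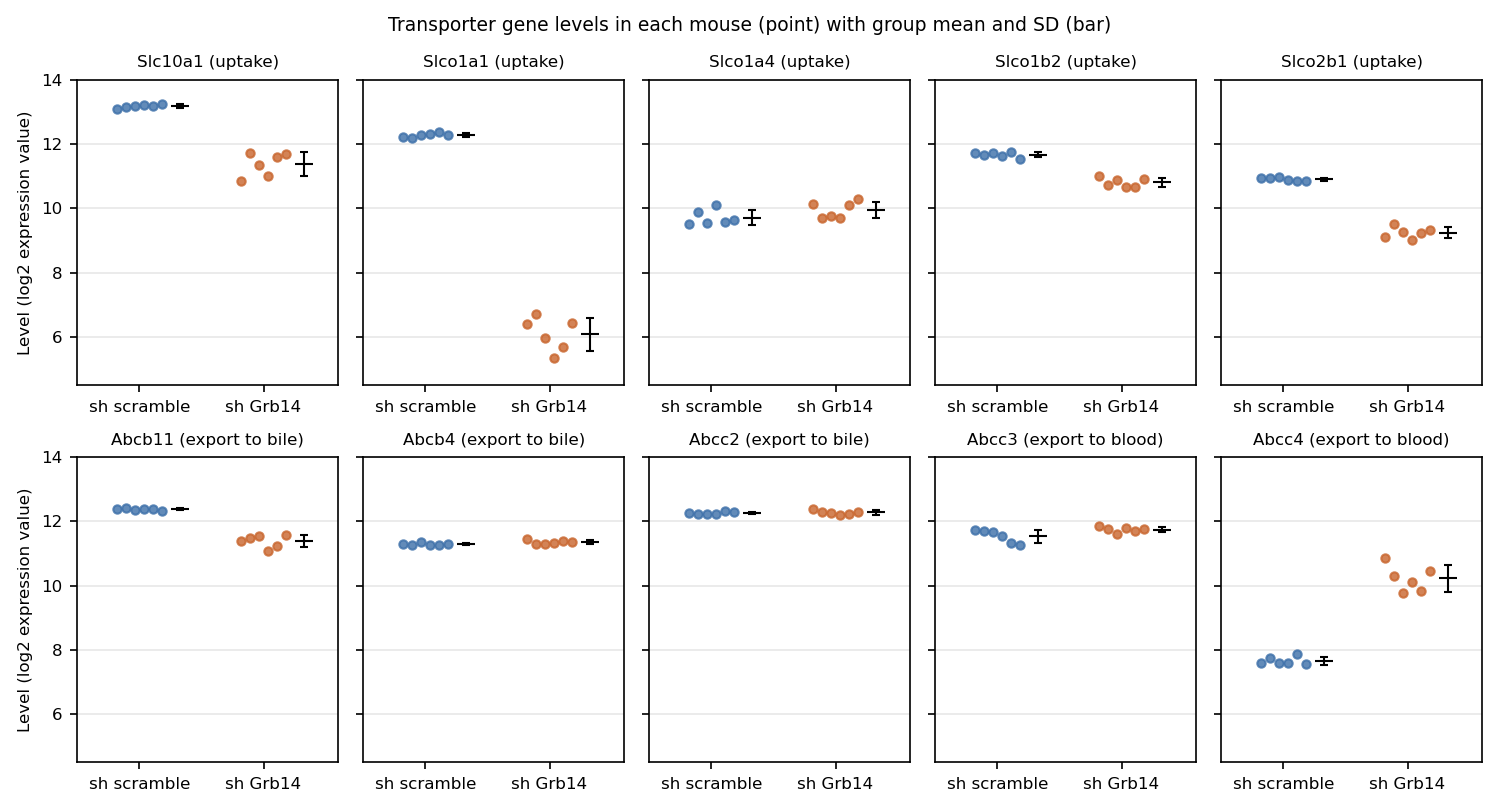
Log2 level (vertical axis, the same in all panels) of the 10 transporter genes in each of 12 mice (points, in order of replicate number) with the group mean and SD (black bars, n = 6). Blue and orange points do not overlap for Slc10a1, Slco1a1, Slco1b2, Slco2b1, Abcb11 and Abcc4, and they overlap for the other 4 genes. Levels of different genes come from different probe sets and are not to be compared with each other.

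Slc10a1 encodes NTCP, the main carrier for conjugated bile acids from portal blood. Its level ranged from 13.09 to 13.25 (median 13.19) in sh scramble livers and from 10.85 to 11.74 (median 11.48) in sh Grb14 livers. A gap of 1.36 separated the groups, and the sh Grb14 mice were far more scattered than the controls, with mice 1 and 4 lowest and mice 2 and 6 highest. The mean fell by 1.81 (SE 0.12), from 13.19 ± 0.054 to 11.38 ± 0.37 (SD, n = 6 each), which left 28.5% (limma adjusted p = 1.38e-09; exact permutation p = 0.00216). That exact p, two-sided, is the smallest that 12 mice in 2 groups of 6 can give, and it was reached by all 6 genes without overlap. Of all genes, 0.602% fell by more.

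Slco1a1 encodes OATP1A1, a carrier of broad range for bile acids, steroid conjugates and drugs that is abundant in male mouse liver. It had the largest change in either direction among the 19938 genes. Its level ran from 12.21 to 12.39 (median 12.29) in sh scramble livers and from 5.36 to 6.72 (median 6.18) in sh Grb14 livers. No control mouse lay within 5.49 of any sh Grb14 mouse. The lowest sh Grb14 mice, 4 and 5, lay at 5.36 and 5.67, under every array's lower quartile, so the change of −6.20 (SE 0.17) can be understated (limma adjusted p = 2.51e-14). The mean went from 12.28 ± 0.068 to 6.09 ± 0.52 (SD, n = 6 each), or 1.37% of the control level.

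Slco1a1 stands in a cluster of Slco genes on chromosome 6, and neither Slco1a4 nor Slco1b2 shared the size of its fall. In RefSeq gene order the named Slco genes are Slco1c1, Slco1b2, Slco1a4, Slco1a1, Slco1a6 and Slco1a5. Slco1a4, the next named Slco gene on one side, encodes OATP1A4, which carries bile acids and cardiac glycosides. It ranged from 9.53 to 10.11 (median 9.60) in sh scramble livers and from 9.69 to 10.31 (median 9.94) in sh Grb14 livers, so the groups overlapped widely. Its change of 0.24 (SE 0.12; 95% interval −0.0056 to 0.49) did not pass (limma adjusted p = 0.0787; exact permutation p = 0.115). Leaving out sh scramble mouse 4, the highest control, gave 0.32 (limma adjusted p = 0.0167), leaving out sh Grb14 mouse 2 gave 0.30 (limma adjusted p = 0.0413), and leaving out sh Grb14 mouse 4 gave 0.29 (limma adjusted p = 0.0418). With arrays centred on hepatocyte secreted protein genes it was 0.52 (limma adjusted p = 0.000552), and over all alternatives the adjusted p ranged from 0.000552 to 1.

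Slco1b2 encodes OATP1B2, the hepatocyte carrier that corresponds to the human OATP1B proteins and takes up unconjugated bile acids and bilirubin. It lay between 11.55 and 11.75 (median 11.70) in sh scramble livers and between 10.66 and 10.998 (median 10.82) in sh Grb14 livers. The groups stood 0.55 apart, and sh Grb14 mice 4 and 5 were lowest. It fell by 0.86 (SE 0.059), to 55.1% of the control level (limma adjusted p = 1.33e-09). The remaining named genes of the cluster had low levels, 5.52 to 6.28 in sh scramble livers. A fall as large as that of Slco1a1 could not have shown in them. Slco1a6, at 5.57 and 5.41, had a change of −0.16 (SE 0.065; limma adjusted p = 0.0416), Slco1a5, at 5.52 and 5.34, one of −0.18 (SE 0.078; limma adjusted p = 0.0568), which missed the threshold, and Slco1c1 one of −0.17 (SE 0.059; limma adjusted p = 0.0167), and all 3 changes turned positive with arrays centred on hepatocyte secreted protein genes. The unnamed gene model Gm6614, next to Slco1a1 on the other side, fell by 0.41 (limma adjusted p = 0.00039) from a similarly low level, 5.75. Slco1a genes are similar in sequence, so their probe sets may share signal.

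Slco2b1, another OATP carrier, for steroid sulfates among others, fell on a narrow spread. It lay between 10.84 and 10.97 (median 10.91) in sh scramble livers and between 9.03 and 9.52 (median 9.25) in sh Grb14 livers. Again sh Grb14 mouse 4 was lowest and mouse 2 highest, and the gap between the groups was 1.32. It fell by 1.66 (SE 0.065), which left 31.7% (limma adjusted p = 1.27e-12).

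Of the 3 genes for export into bile, Abcb11 fell while Abcb4 and Abcc2 stayed close to their control levels. Abcb11 encodes BSEP, the pump for bile salts. It lay between 12.34 and 12.41 (median 12.38) in sh scramble livers, with an SD of 0.025, and between 11.09 and 11.59 (median 11.44, SD 0.19) in sh Grb14 livers. All sh Grb14 mice were below all controls, with a gap of 0.75, and mouse 4 was lowest. It fell by 0.99 (SE 0.067), which left 50.5% (limma adjusted p = 1.21e-09). Nr1h4, which encodes FXR, fell by 0.93 (SE 0.055) in the same livers. Nr0b2, a known FXR target, was 0.18 higher (SE 0.16; limma adjusted p = 0.308), short of the threshold. Whether FXR had a part in the fall of Abcb11 was not tested. FXR is known to bind an inverted repeat in the promoter of Abcb11, and RefSeq promoter windows, from 250 bases before to 50 bases after each annotated start, were searched for such a repeat, AGGTCANTGACCT, on both strands with up to 2 mismatches. Of all 32851 windows 1.14% held a match. Among the 13 windows of the 9 transporter genes with any, only the windows of Abcb11 and Slco1b2 did, 1 for each gene. Both are shown 5′ to 3′ in the direction of the gene with the matches in capitals, Abcb11 from chr2:69342567-69342866, minus strand, and Slco1b2 from chr6:141629268-141629567, plus strand (RefSeq, GRCm38.p6).
Abcb11: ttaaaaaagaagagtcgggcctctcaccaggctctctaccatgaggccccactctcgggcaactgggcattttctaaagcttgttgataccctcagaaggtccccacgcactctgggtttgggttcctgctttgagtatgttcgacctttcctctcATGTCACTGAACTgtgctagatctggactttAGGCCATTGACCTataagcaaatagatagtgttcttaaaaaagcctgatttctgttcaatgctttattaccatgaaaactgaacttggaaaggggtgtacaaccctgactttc
Slco1b2: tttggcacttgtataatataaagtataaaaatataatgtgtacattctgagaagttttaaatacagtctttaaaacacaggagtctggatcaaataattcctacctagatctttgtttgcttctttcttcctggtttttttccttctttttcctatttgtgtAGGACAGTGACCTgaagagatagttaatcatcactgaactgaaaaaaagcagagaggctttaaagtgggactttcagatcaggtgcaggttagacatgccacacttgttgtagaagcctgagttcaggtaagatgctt

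In Abcb11 the match nearer to the start site, with 1 mismatch, spans positions −63 to −51 counted from the start, and the other, with 2 mismatches, spans −94 to −82. In Slco1b2 the match, with 1 mismatch, spans −88 to −76. A match is a description of the letters only.

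Abcb4 encodes the canalicular translocator that supplies phosphatidylcholine to bile. It lay between 11.27 and 11.35 (median 11.29) in sh scramble livers and between 11.30 and 11.45 (median 11.36) in sh Grb14 livers. The ranges overlapped narrowly. The change of 0.068 (SE 0.034; 95% interval −0.0044 to 0.14) missed limma's test (adjusted p = 0.0900), although the exact permutation p was 0.0281, and it turned to −0.079 (limma adjusted p = 0.0437) with arrays centred on the median of the genes tested. Abcc2 encodes MRP2, which exports bilirubin glucuronides and glutathione conjugates. It lay between 12.23 and 12.31 (median 12.26) in sh scramble livers and between 12.19 and 12.40 (median 12.28) in sh Grb14 livers. The sh Grb14 range enclosed that of the controls. Its change was 0.014 (SE 0.036; 95% interval −0.062 to 0.090; limma adjusted p = 0.744), −0.01 without sh Grb14 mouse 1, −0.13 with arrays centred on the median of the genes tested (limma adjusted p = 0.00334) and 0.29 with arrays centred on hepatocyte secreted protein genes (limma adjusted p = 5.5e-07). The direction for Abcb4 and Abcc2 is therefore not set by these data, whereas the 5 falls and the rise of Abcc4 passed under all 25 alternatives.

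**Figure D2:**
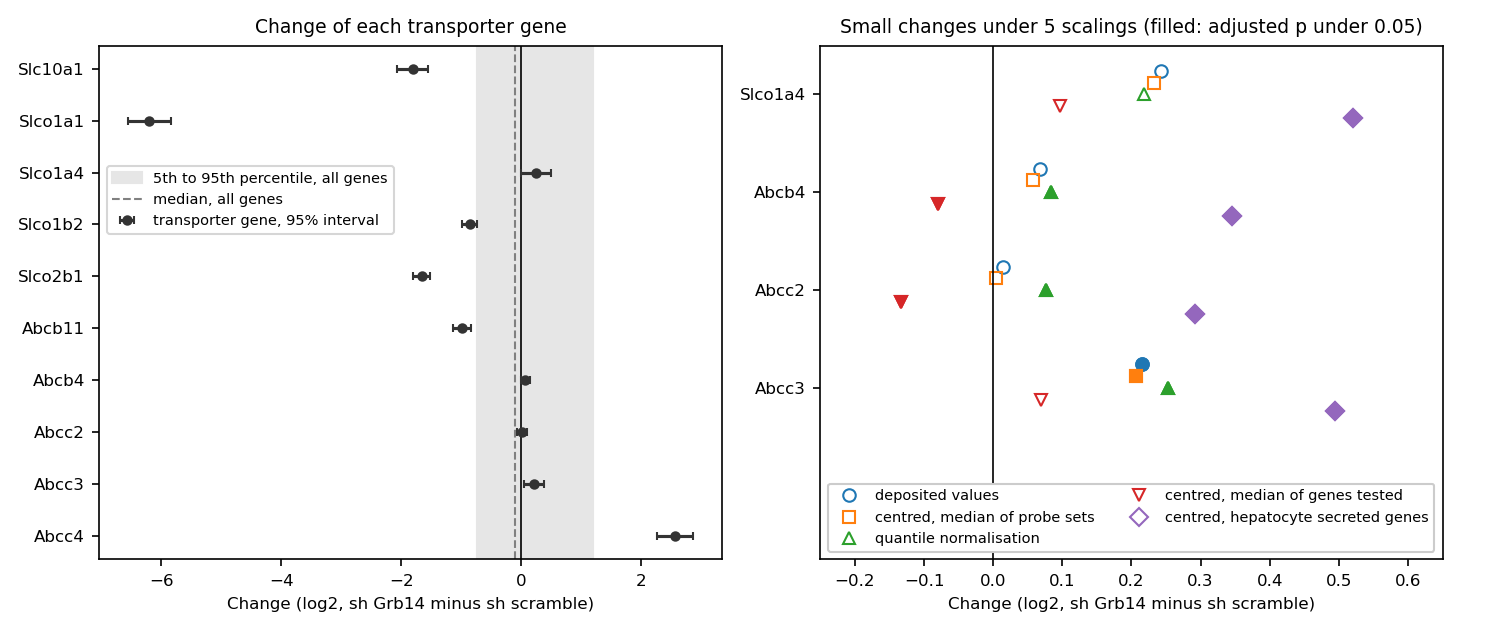
Left, change of each transporter gene (log2, horizontal axis) with its 95% interval, over the 5th to 95th percentile of all genes (grey, −0.73 to 1.20) and their median (dashed, −0.10). Right, the 4 smallest changes under 5 scalings of the arrays, filled where limma's adjusted p was under 0.05. Abcb4 and Abcc2 lie on both sides of 0, and Slco1a4 and Abcc3 stay above it.

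Export to blood differed in size between the MRP genes. Abcc4 encodes MRP4, which moves bile acids together with glutathione, and cyclic nucleotides, across the blood-facing membrane. It lay between 7.55 and 7.88 (median 7.61) in sh scramble livers and between 9.77 and 10.86 (median 10.22) in sh Grb14 livers. The groups were 1.89 apart, and sh Grb14 mouse 1, the mouse with the lowest Slc10a1, was highest. The rise was 2.57 (SE 0.14), or 5.92-fold, from 7.66 ± 0.12 to 10.23 ± 0.41 (SD, n = 6 each; limma adjusted p = 9.28e-11; exact permutation p = 0.00216), and 0.456% of all genes rose by more. Abcc3 encodes MRP3, an exporter of glucuronides and bile acids. It lay between 11.26 and 11.73 (median 11.60) in sh scramble livers and between 11.62 and 11.87 (median 11.76) in sh Grb14 livers. The sh scramble mice spread more than the sh Grb14 mice here, mice 5 and 6 being low, and the 3 highest controls lay inside the sh Grb14 range. Its rise of 0.22 (SE 0.076) passed narrowly (limma adjusted p = 0.0207; exact permutation p = 0.0325). Without sh scramble mouse 5 it was 0.17 (limma adjusted p = 0.0501), and with arrays centred on the median of the genes tested 0.069 (limma adjusted p = 0.413).

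NRF2 is a known regulator of Abcc4 and Abcc2, and Nfe2l2, its gene, rose by 1.04 (SE 0.046) in these livers. The windows were searched on both strands for the core of the antioxidant response element, TGACNNNGC. It was present in 12.4% of all windows. Among the 13 windows of the 9 transporter genes with any, only those of Abcc2 and Abcc4 held it. The changes of Abcc2 and Abcc4 were 0.014 and 2.57. Whether NRF2 had a part in them was not tested. Abcc4 has 2 windows, each with 1 match. The one not shown, chr14:118676882-118677181, minus strand, holds it on the strand of the gene at −23 to −15. A window of each gene is shown with matches in capitals, Abcc4 from chr14:118706170-118706469, minus strand, where the match lies on the opposite strand at −25 to −17, and Abcc2 from chr19:43782058-43782357, plus strand, where the core lies at −98 to −90.
Abcc4: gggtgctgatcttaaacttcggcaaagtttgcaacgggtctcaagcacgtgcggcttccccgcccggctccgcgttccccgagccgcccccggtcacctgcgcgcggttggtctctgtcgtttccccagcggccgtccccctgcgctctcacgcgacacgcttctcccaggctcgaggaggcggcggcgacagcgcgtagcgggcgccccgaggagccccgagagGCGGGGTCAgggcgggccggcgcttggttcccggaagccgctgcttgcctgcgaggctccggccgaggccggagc
Abcc2: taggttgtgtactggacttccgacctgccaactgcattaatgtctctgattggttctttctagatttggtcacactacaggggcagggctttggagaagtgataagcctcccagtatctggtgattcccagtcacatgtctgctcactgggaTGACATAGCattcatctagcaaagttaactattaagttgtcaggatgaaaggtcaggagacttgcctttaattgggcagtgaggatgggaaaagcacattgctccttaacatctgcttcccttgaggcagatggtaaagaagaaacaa

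The mice of the sh Grb14 group differed among themselves. For 9 of 10 transporter genes the SD was larger in sh Grb14 livers, with a median ratio of 2.70, beside 53.4% of all genes and a ratio of 1.05. Among genes with a mean level above 11, where 6 of the 10 lie, the share was 64.7% and the ratio 1.27. Abcc3 was the exception, with SDs of 0.20 and 0.083. A larger SD in sh Grb14 livers is not particular to the transporter genes. Other genes that fell had it too, such as Cyp7a1 (0.12 and 0.62), Cyp8b1 (0.14 and 0.52) and Elovl3 (0.043 and 0.66). Onecut1 (0.90 and 0.19) and Nr1i3 (0.24 and 0.046), which also fell, did not. Mouse 4 was lowest of its group for Slco1a1, Slco2b1, Abcb11 and Abcc2, at −0.73 from the group mean for Slco1a1. Mouse 1 was highest for Slco1b2, Abcb4, Abcc2, Abcc3 and Abcc4 and lowest for Slc10a1. Mouse 2 was highest for Slc10a1, Slco1a1 and Slco2b1. No single mouse was therefore extreme in all genes. Mice 4 and 5, whose arrays stood apart, had the 2 lowest values of their group for Slco1a1, Slco1b2, Abcb11 and Abcc2. Without both, the change was −5.91 for Slco1a1, −0.79 for Slco1b2, −0.87 for Abcb11 and 0.050 for Abcc2. It was −1.77 for Slc10a1, −1.60 for Slco2b1, 2.69 for Abcc4, 0.22 for Abcc3, 0.26 for Slco1a4 and 0.063 for Abcb4, and the same 7 genes passed limma's test as with all mice.

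**Figure D3:**
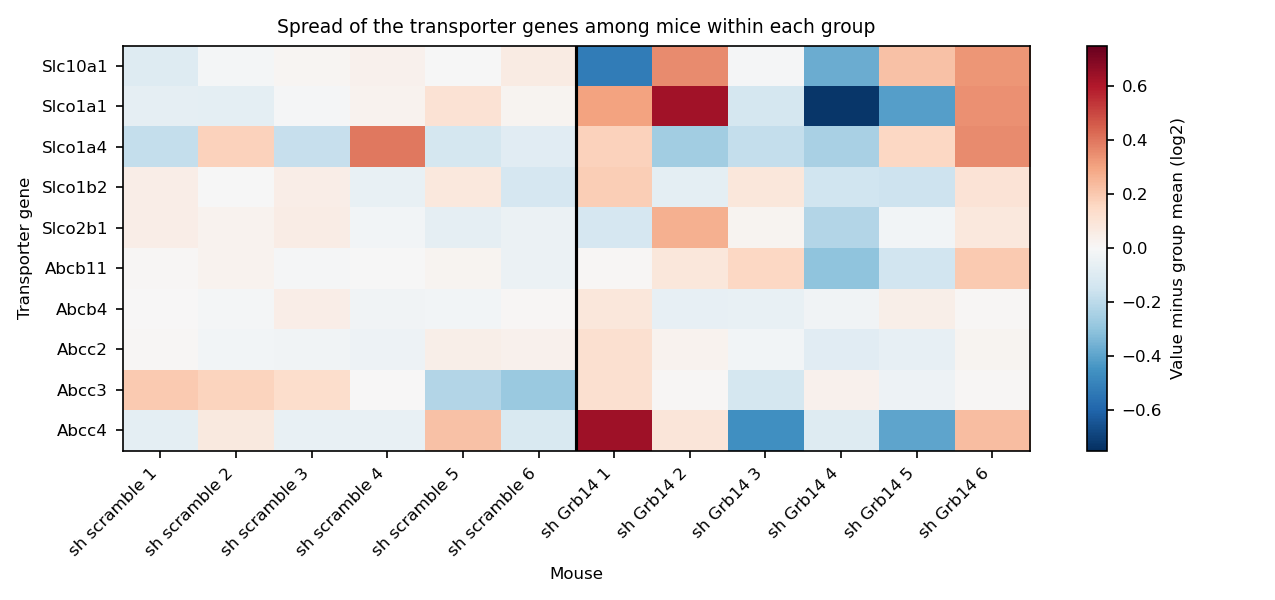
Value of each transporter gene (rows) in each mouse (columns) minus its group mean, in log2 units (red above, blue below). The sh scramble mice, left of the line, lie near their means except in Slco1a4, Abcc3 and, for mouse 5, Abcc4, and the sh Grb14 mice spread most in Slc10a1, Slco1a1 and Abcc4, with Slco1a1 from −0.73 to 0.63.

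Other genes with the most similar profile were sought for each transporter gene by the root mean square difference over the 12 mice, after the sh scramble mean of each gene was subtracted. Slco1a1 was closest to the steroid dehydrogenase gene Hsd3b5 (difference 0.26, change −6.04) and the sulfotransferase gene Sult2a8 (0.37, change −5.69). Slc10a1 was closest to the glucuronosyltransferase gene Ugt2b1 (0.15, change −1.79) and to Hsd11b1 (0.15), which regenerates active glucocorticoid. The closest to Slco2b1 was Slc47a1 (0.050), to Abcb11 Prnp (0.065) and to Slco1b2 Ddrgk1 (0.069). For the genes with small changes the closest were Pde1a to Slco1a4 (0.17), Nrd1 to Abcb4 (0.036), Ssr3 to Abcc2 (0.034) and Nmb to Abcc3 (0.088). Next to Abcc4 were Prelid2 (0.19), the sulfiredoxin gene Srxn1 (0.23, change 2.53) and another exporter gene, Abcb1a (0.25, change 2.63). Only the sh scramble mean was subtracted, so a close gene must have a similar change. The measure does not show that genes vary together among the mice of a group. These are likenesses of profile over 12 mice and were given no test.

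Other transporters of the same kinds moved in both directions. Of 18 measured genes for further organic anion and bile acid transporters 4 rose, beside 25.8% of all genes, and 6 fell, beside 39.5%. Another 8 missed the threshold, and the median change was −0.13, or 0.15 with arrays centred on hepatocyte secreted protein genes. Slc51b, the beta subunit of the bile acid exporter OST on the blood-facing membrane, rose 3.73-fold (log2 1.90, SE 0.085), from 7.72 ± 0.18 to 9.62 ± 0.15 (SD, n = 6 each). Its partner Slc51a, at 6.14 and 6.03, showed no change past the threshold (−0.12, SE 0.080; limma adjusted p = 0.208). The related exporter genes Abcc1 and Abcc5 rose by 1.54 (SE 0.065) and 1.10 (SE 0.061), whereas Abcc6, which is highly expressed in hepatocytes, fell by 1.27 (SE 0.069). Slc10a5, a relative of Slc10a1, fell by 1.35 (SE 0.11). Slc10a2, the sodium-dependent carrier of ileum and bile ducts, had a change of −0.061 (SE 0.12; limma adjusted p = 0.667).

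Among 9 measured exporters of lipids, sterols, drugs and metals 3 rose, beside 25.8% of all genes, and 5 fell, beside 39.5%. Another 1 missed the threshold, and the median change was −0.18, or 0.10 with that centring. Abcb1a, a drug exporter of the P-glycoprotein type, rose 6.20-fold (log2 2.63, SE 0.063), and its close copy Abcb1b, with which it may share signal, rose by 0.92 (SE 0.13). Slc47a1, an exporter of organic cations, fell by 1.70 (SE 0.074), and Abcg2, an exporter of drugs and urate, fell by 0.74 (SE 0.082). Atp8b1, a flippase that protects the canalicular membrane, and its subunit Tmem30a fell by 0.42 (SE 0.053) and 0.52 (SE 0.035). Of the sterol exporter pair, Abcg5 rose by 0.23 (SE 0.053), whereas Abcg8 was at 0.0089 (SE 0.068; limma adjusted p = 0.912).

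All 17 measured genes for apical scaffolds, trafficking and polarity passed, beside 65.3% of all genes. In this list 10 were lower and 7 higher, with a median change of −0.26, or 0.02 with that centring. Pdzk1, a scaffold that holds OATP1A1 at the membrane, fell by 1.03 (SE 0.077), and Slc9a3r1, a related scaffold, fell by 0.70 (SE 0.050). Rdx, the radixin that anchors MRP2 in hepatocytes, fell by 0.49 (SE 0.044), while its relatives Msn and Ezr rose by 1.82 (SE 0.047) and 1.06 (SE 0.082). Msn is also a gene of leukocytes and endothelium. Markers of macrophages and most T cell markers rose in these livers as given above. Of 11 sinusoidal endothelial markers 4 rose and 6 fell. The part of other cell types in the rise of Msn was not tested. Ceacam1, a canalicular adhesion protein, fell by 0.96 (SE 0.051). Vipas39, a partner of Vps33b in apical trafficking, rose by 0.51 (SE 0.057). The tight junction genes Cldn2 and Cldn1 fell by 0.63 (SE 0.063) and 0.49 (SE 0.048).

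Most regulators of these transporters fell on the deposited values. Of 29 measured 20 fell and 3 rose, 6 missing the threshold, and the median change was −0.45. Of all genes, 39.5% passed lower. With arrays centred on hepatocyte secreted protein genes 14 regulators were lower, 8 were higher and 7 did not pass, with a median of −0.17. Onecut1 fell most, by 2.42 (SE 0.30), from a control level with a wide spread, 10.97 ± 0.90, to 8.55 ± 0.19 (SD, n = 6 each). Cebpa fell by 1.71 (SE 0.055), Thrb, a thyroid hormone receptor, fell by 1.31 (SE 0.072), and Ppara, the fatty acid receptor, fell by 1.06 (SE 0.048). Nr1i3, the gene for CAR, fell by 1.03 (SE 0.085), Nr1i2, the gene for PXR, fell by 0.15 (SE 0.042) but turned positive with arrays centred on hepatocyte secreted protein genes, and Hnf4a fell by 0.37 (SE 0.060). Fgfr4, the receptor through which intestinal FGF15 restrains bile acid synthesis, fell by 0.97 (SE 0.074). Vdr, the vitamin D receptor, rose by 1.08 (SE 0.080), and Ahr, which senses aromatic ligands, by 0.58 (SE 0.091). Nr0b2, an FXR target that encodes the repressor SHP, was at 0.18 (SE 0.16; limma adjusted p = 0.308).

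Most genes of bile acid synthesis fell, as did most of the uptake genes. Of 18 measured 14 fell, beside 39.5% of all genes, and 1 rose, beside 25.8%. Another 3 missed the threshold, and the median change was −0.72. With arrays centred on hepatocyte secreted protein genes 12 were lower and 4 higher, with a median of −0.44. Cyp7b1, an oxysterol hydroxylase of the alternative pathway that is also male-biased, fell by 2.99 (SE 0.12). Cyp7a1, the rate-limiting enzyme of the classical pathway, fell by 2.42 (SE 0.21), from 12.10 ± 0.12 to 9.68 ± 0.62 (SD, n = 6 each), and Cyp8b1, which directs synthesis to cholic acid, fell by 2.83 (SE 0.18). Slc27a5, which activates bile acids for conjugation, fell by 1.75 (SE 0.065). Baat, which joins bile acids to taurine, fell by 1.30 (SE 0.073). Cyp39a1, another oxysterol hydroxylase, was the gene that rose on the deposited values, by 0.21 (SE 0.078). It did not pass without sh scramble mouse 6 or without sh Grb14 mouse 1. Periportal and pericentral hepatocyte genes were lower in the same livers as given above.

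**Figure D4:**
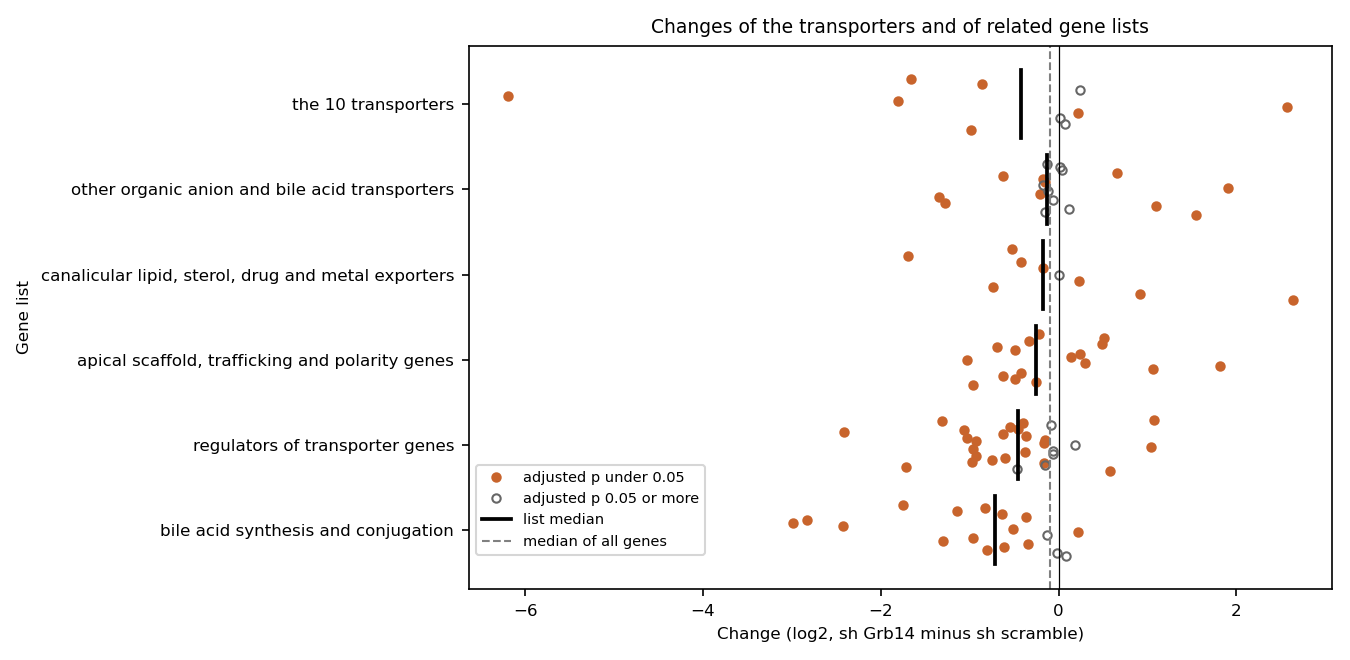
Changes (log2, horizontal axis) of the 10 transporter genes and of 5 related lists, 1 point per gene, filled where limma's adjusted p was under 0.05, with each list's median (thick bar) and the median of all genes (dashed, −0.10). List medians run from −0.72 for bile acid synthesis to −0.13 for other transporters, of which those of other transporters, exporters and scaffolds turn positive with arrays centred on hepatocyte secreted protein genes, and the transporter genes span −6.20 to 2.57.

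Genes known to be higher in male than in female mouse liver were lower as well. With the transporter genes taken out, all 12 measured male-biased genes fell, beside 39.5% of all genes, with a median change of −1.48. Among them Hsd3b5 fell by 6.04 (SE 0.12), Mup21 fell by 4.15 (95% interval −4.37 to −3.94) and Elovl3 fell by 3.96 (SE 0.22). Of 11 measured female-biased genes other than the transporters 3 rose and 3 fell, 5 missing the threshold, and the median change was −0.04. With arrays centred on hepatocyte secreted protein genes 8 of these 11 were higher and 0 lower, with a median of 0.24, while 11 of the 12 male-biased genes were lower and 1 higher. Within the transporter genes Slco1a1 stands in the first list, and Slco1a4, Abcc3 and Abcc4 in the second. Genes of kidney tubule and intestine, tissues that share some of these transporters, had mean levels of 6.76 to 6.92 in sh scramble livers and 6.55 to 6.81 in sh Grb14 livers. Of those 11 genes 7 fell, 1 rose and 3 did not pass, but with that centring 1 was lower and 2 higher. Sinusoidal endothelial markers had means of 9.64 to 9.84 and 9.63 to 9.77, with 4 of 11 higher and 6 lower (5 and 3 with that centring), and stellate cell and fibroblast genes 9.22 to 9.49 and 9.64 to 10.02, with 7 of 12 higher and 4 lower (8 and 2 with that centring).

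Relative to the hepatocyte secreted protein genes of the same array, the falls remained. With arrays centred on those genes the change was −1.53 for Slc10a1, −5.92 for Slco1a1, −0.58 for Slco1b2, −1.38 for Slco2b1 and −0.71 for Abcb11, and each passed limma's test. The reference genes did not move together. Of the 14 measured 11 fell and 1 rose, and Apoa2 fell by 0.98, whereas Hpx rose by 0.093. The changes of Alb (0.036) and Ahsg (−0.006) did not pass. These reference genes have very high values, and a bright probe set may understate a change.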

How the data were processed

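Values for 35556 probe sets on 12 arrays were deposited on the log2 scale, made by the authors with RMA and Partek, both named in the submitters' processing notes without version, role or order. Per the labels' protocols, 100 ng of Trizol-extracted RNA was biotin-labelled for Affymetrix whole-transcript arrays. The chip file, build and scan batches are not given in the sources used here. Of the probe sets, 21789 had 1 gene symbol in the platform annotation, 1621 had several and 12146 had none listed. Per gene the probe set with the highest mean was kept (19938 genes), and each transporter gene had only 1. The files hold no raw intensities, so detection is unknown, and the number of arrays limits the precision.

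All genes were fitted with limma 3.58.1 in R 4.3.3 (lmFit, eBayes with an intensity trend, no covariate, no filter), checked on simulated data. Exact permutation tests over 924 assignments were two-sided. Lists were described by counts and medians. The genes and lists were chosen with earlier results of these data known. All 10 transporter genes were named, and from each list at most 8 genes past the test, largest changes first, besides Grb14, main receptors (Nr1h4, Nr0b2, Nr1i2, Nr1i3, Nfe2l2, Ahr, Hnf4a), Slc51a, Slc51b, Slc10a2, Cyp7a1 and Cyp8b1 whatever their result, and 1 to 3 of the genes most like each transporter gene, closest first. Rdx, Cyp39a1, Abcg8, Krt19, Krt7, Cd4, Gm6614, Slco1a5, Slco1a6, Slco1c1, Alb, Ahsg and Hpx were added after their values were seen. Promoter windows are from RefSeq (GRCm38.p6), with a window for 9 of the 10 genes, and 1 planned motif search is not reported here. Mice are numbered 1 to 6 within a group in accession order. Each label names 1 mouse, cages and litters are not given, and p-values measure the spread between these mice.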

Additional observations from a re-analysis of the deposited data

How the results depend on the processing

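Each transporter change was recomputed under 25 alternatives, 12 of which left out 1 mouse, and 235 of 250 values kept direction and side of the threshold. For 6 genes (Slc10a1, Slco1a1, Slco1b2, Slco2b1, Abcb11 and Abcc4) every one of these values did. Several alternatives could not alter a direction. Bonferroni adjustment, the exact permutation test, robust eBayes, no intensity trend and testing only brighter genes altered only the p-value. Fits on all probe sets or on their means returned the same change, because each transporter gene had 1 probe set. Quantile normalisation gave 0.083 for Abcb4 and 0.077 for Abcc2, both past the test, so that 4 transporter genes were higher. Centring on hepatocyte secreted protein genes gave 0.52 for Slco1a4, 0.35 for Abcb4 and 0.29 for Abcc2, so that 5 were higher, and made 9983 genes higher and 2171 lower, against 5144 and 7868. Centring on the median of the genes tested, an alternative chosen after seeing the data, gave −0.079 for Abcb4, −0.13 for Abcc2 and 0.069 for Abcc3, with 7 transporter genes lower, 1 higher and 12943 of all genes lower. With Bonferroni adjustment Abcc3 (0.22) did not pass, 1 transporter gene was higher, and 5090 genes passed, 2860 higher and 2230 lower. Testing only genes above the median level left 7869 past the test, 4051 lower, since fewer genes were tested. By the exact permutation test Abcb4 (0.068) passed.

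Leaving out 1 mouse, the changes ranged from 0.17 to 0.32 for Slco1a4, from 0.16 to 0.26 for Abcc3 and from −0.0105 to 0.031 for Abcc2, reversed without sh Grb14 mouse 1, and the number of transporter genes higher from 1 (without sh scramble mouse 5) to 3. Except for the constructions named, the cause was not tested. Leaving out sh Grb14 mice 4 and 5 together, also chosen after seeing the data, changed no call of a transporter gene and left 14153 genes past the test. No paired analysis was possible because each mouse has a number of its own.

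Of 230 list counts recomputed for the 5 related lists 16 differed by over 1.5 times from those reported. Other transporters lower were 3 in place of 6 with hepatocyte centring, Bonferroni or brighter genes, and 11 with centring on genes tested, and 7 in place of 4 were higher with hepatocyte centring. Scaffold genes lower were 6 in place of 10 (hepatocyte centring) and higher 4 in place of 7 (Bonferroni). Regulators higher were 8 in place of 3 (hepatocyte centring) and lower 13 in place of 20 (Bonferroni). Synthesis genes higher were 0, 2 or 4 in place of 1. Of 552 marker list counts 63 differed so. Signal over background is unknown, which limits genes near the bottom of the scale, such as Slco1a1 in sh Grb14 livers.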
